A study of Mus musculus with 2 samples.

Results

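The auxiliary beta subunit genes of voltage-gated sodium channels, Scn2b, Scn3b and Scn4b, were followed through the neurons and non-neuronal cells of the mouse trigeminal ganglion (TG), the ganglion that holds the cell bodies of the sensory neurons of the face. They were taken by name as 3 genes of the 39098 gene symbols listed in either library. Other beta subunit genes were not analysed here. The right TG was taken from male C57BL/6 mice of 5 to 8 weeks a week after an injection into the right vibrissal pad. The CFA group received 20 μL of complete Freund's adjuvant (CFA), an emulsion that causes lasting inflammation, mixed 1:1 with saline. For the control group the study's methods describe saline in place of CFA, while the sample labels call it untreated. Ganglia were dissociated with papain and made into BD Rhapsody libraries, 1 library per condition, and how many mice a library holds is not given in the sources used here. No difference between the conditions therefore has a replicate check, cells of 1 library are not replicates, and no p-value was computed.

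The libraries held 7298 control and 4080 CFA cells, of which 6695 and 3661 were kept, as cells with 150 genes or more whose mitochondrial share did not pass 25%. Neurons were the cells of at least 5000 unique molecular identifiers (UMIs) with at least 3 UMIs for at least 3 of the neuronal genes Tubb3, Snap25, Uchl1 and Stmn2. This gave 797 control neurons with a median of 44548 UMIs and 407 CFA neurons with a median of 37014 UMIs. The libraries shared 27 cell indices, and 0 of these belonged to a gated neuron. Levels are UMIs of a gene summed over the cells of a class, per 1000000 UMIs of that class (CPM), and each interval is an exact 95% interval that covers counting error only, not the variation between animals.

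A sodium channel is built of a pore-forming alpha subunit and of beta subunits, small proteins with a single membrane span and an immunoglobulin-like domain outside the cell. Beta subunits change how fast the channel opens, closes and recovers, help bring it to the membrane and bind adhesion molecules at nodes and axon initial segments. The beta-2 (Scn2b) and beta-4 (Scn4b) subunits are bound to the alpha subunit by a disulfide bond and the beta-3 (Scn3b) subunit is not, and beta-4 is known for its part in the resurgent sodium current that lets neurons fire at high rates. In sensory ganglia, fast-conducting A-fibre neurons carry much neurofilament, encoded by Nefh, and many slow C-fibre pain neurons make the peptide CGRP, encoded by Calca.

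All 3 genes lie on the plus strand of mouse chromosome 9 (GRCm38, GENCODE M21). Scn3b spans chr9:40269217-40291618 and has 7 exons in its longest coding transcript, with 645 coding bases. Scn2b spans chr9:45117782-45130070 with 5 exons and 645 coding bases, and Scn4b spans chr9:45138395-45154152 with 5 exons and 684 coding bases. Scn2b ends only 8324 bases before Scn4b starts, so these neighbours can be compared in every cell class. The lincRNA gene Gm10684 on the minus strand covers all 12289 bases of Scn2b, but 0 of the 4656 exon bases of Scn2b lie inside its exons. Whether the counting used strand is not given in the sources used here.

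The bases just before the annotated starts of the neighbours are shown because their CG content differs; CG dinucleotides are in capitals and the strand is plus.
Scn2b, chr9:45117626-45117781: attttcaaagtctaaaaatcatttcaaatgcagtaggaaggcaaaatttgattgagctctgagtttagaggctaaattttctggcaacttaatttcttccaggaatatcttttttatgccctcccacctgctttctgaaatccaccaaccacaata
Scn4b, chr9:45138374-45138394: gtCGtcCGcagCGggcaagcc
In the RefSeq start windows of 300 bases from which these come (GRCm38.p6), the Scn2b window held 2 CG dinucleotides and 38.33% G and C, and the Scn4b window held 26 CG dinucleotides and 66.33% G and C. Of 32851 such windows, 85.88% held at least 2 and 16.87% at least 26, with a median of 7. RefSeq windows were found for 2 of the 3 genes. Of the 300 bases of each window, 156 lie before the annotated gene start for Scn2b and only 21 for Scn4b, and the rest lie inside the gene. These counts describe the letters of the windows and were not linked to the levels.

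Neurons were put in classes by raw UMIs of marker genes, never by the beta subunit genes. Mrgprd+ neurons (159 control, 62 CFA) and Mrgpra3+ neurons (45 and 12) correspond to the markers of the NP1 and NP2 non-peptidergic types of the study, and Nppb+ neurons (14 and 11) to its PEP2 type. Neurons with both Tafa4 and P2ry1 (69 and 42) carry markers of C-fibre low-threshold mechanoreceptors (cLTMR). Trpm8+ neurons (50 and 24) hold the cold-sensing channel. The rest were divided by Nefh and Calca into Nefh+Calca- neurons (19 and 11), Nefh+Calca+ neurons (33 and 16) and Nefh-Calca+ neurons (355 and 193), the last of which were split by Sstr2, a somatostatin receptor gene, into Sstr2+ (95 and 62) and Sstr2- (260 and 131). A further 51 control and 35 CFA neurons had neither Nefh nor Calca over the threshold, at a median depth of only 9888 and 9408 UMIs. The gates count raw UMIs, so a deep neuron passes them more readily than a shallow one of the same CPM. Of 110 control neurons with at least 1000 CPM of Calca and 200 to 500 CPM of Nefh, only 23 were in a Nefh+ class. In CFA 8 of 58 were. Nefh-Calca+ neurons were not free of Nefh, at 122 CPM in control and 127 CPM in CFA. The Trpm8+ neurons were themselves rich in Nefh, at 1326 CPM in control and 1467 CPM in CFA, beside 1190 and 1377 CPM in the Nefh+Calca- neurons. The Nefh+Calca- neurons of the CFA library also held the satellite glial gene Fabp7 at 86.7 CPM, against 10.97 CPM in the Nefh-Calca+ neurons, while in control the values were 6.38 and 21.02 CPM.

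Scn4b was the most unevenly spread of the 3 genes, with its highest levels in the classes richest in Nefh and in the cLTMR-type class and very low levels in peptidergic C neurons. In Trpm8+ neurons Scn4b stood at 540 CPM in control (512 to 569) and 450 CPM in CFA (409 to 493). In Nefh+Calca- neurons it stood at 306 CPM (269 to 347) and 349 CPM (294 to 412), and in Tafa4+P2ry1+ neurons at 183 and 199 CPM. The order of these 3 classes was the same in both libraries, each above the next by an interval that excluded 0, and Nefh+Calca+ neurons came after them at 61.2 and 68.0 CPM. In CFA, however, 3 of 24 Trpm8+ neurons held 41.7% and 3 of 11 Nefh+Calca- neurons 68.1% of the Scn4b UMIs of their class. Without the CFA Trpm8+ neuron with the most Scn4b UMIs, Trpm8+ neurons stood at 395 CPM, inside the CFA interval of Nefh+Calca- neurons. The shallow neurons with neither Nefh nor Calca over the threshold, which are not ranked, held 69.0 and 122 CPM. Nefh-Calca+ neurons held only 7.21 CPM in control and 5.33 CPM in CFA. Within them Sstr2+ neurons were nearly without Scn4b, with 7 UMIs in 95 control neurons and 1 UMI in 62 CFA neurons.

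The log2 ratio of Scn4b in Nefh+Calca- over Nefh-Calca+ neurons was 5.41 in control (5.06 to 5.77), a 42.4-fold difference, and 6.03 in CFA (5.49 to 6.62), a 65.5-fold difference. Of the 3 genes, 1 was at least 2-fold higher in Nefh+Calca- neurons and 0 were at least 2-fold lower in each library, where 8.73% of all genes with at least 50 counts were higher in control and 8.34% in CFA, and 12.7% and 13% were lower. With the 10% of neurons richest in glial markers left out, the Scn4b ratio was 5.32 in control and 5.68 in CFA. In Trpm8+ over Nefh-Calca+ neurons Scn4b reached 74.8-fold and 84.4-fold, again as 1 of 3 genes past 2-fold (background 7.69% and 7.57% higher). Even Tafa4+P2ry1+ neurons, which are C fibres, held it at 25.4-fold and 37.4-fold the level of Nefh-Calca+ neurons (background 8.69% and 8.58%). The study itself lists Scn4b among the genes enriched in its Nefh-positive (NF) subtype of these same libraries, so the direction is not independent evidence.

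Trpm8+ neurons were 6.27% of control neurons and gave 46.2% of all neuronal Scn4b UMIs, and in CFA they were 5.90% and gave 34.6%. The gene was read in 45 of 50 control and 22 of 24 CFA neurons of this class, with a median per neuron of 512 and 341 CPM. After each neuron was thinned to 5000 UMIs, 66.0% and 70.8% of Trpm8+ neurons still had a Scn4b UMI, against 1.69% and 1.04% of Nefh-Calca+ neurons. Immune cells, which serve as a background, had 1 Scn4b UMI in 303 control cells at a median depth of 2023 UMIs. In CFA, 187 immune cells at a median of 1688 UMIs had 0, where 3 UMIs would be 8.54 CPM. The remaining Nppb+ class was uneven: 26 control UMIs came from 3 of 14 neurons, 24 of them from 1 neuron, and the 11 CFA neurons had 0, where 3 UMIs would be 5.48 CPM.

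**Figure D1:**
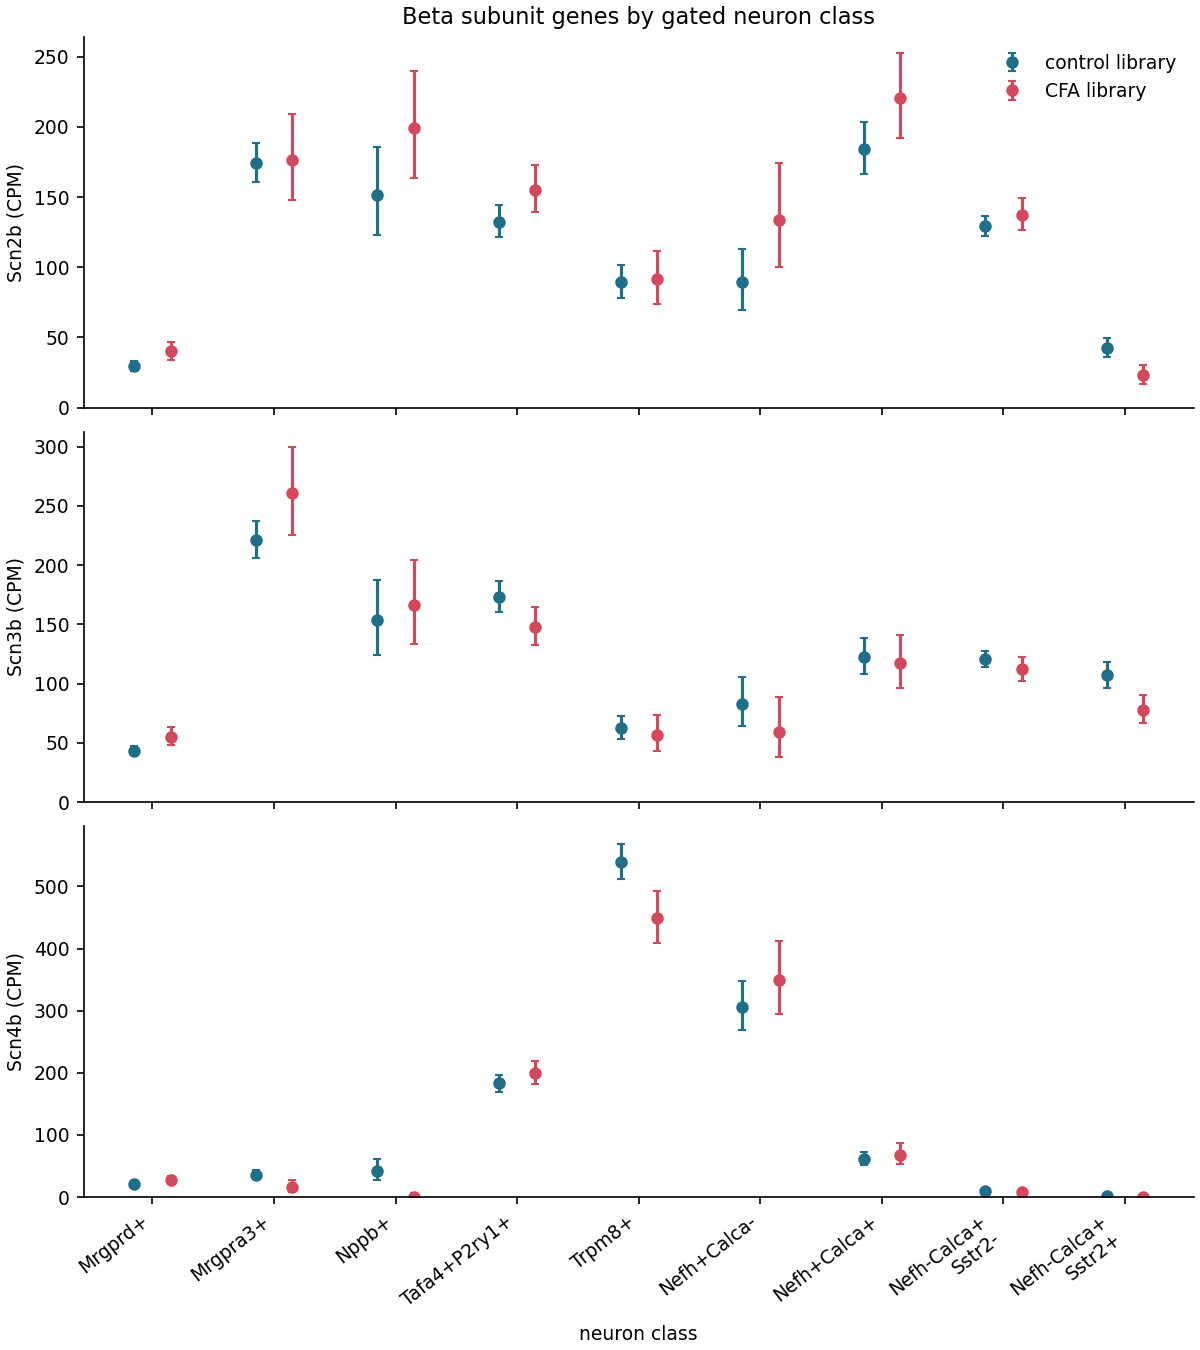
Levels of Scn2b, Scn3b and Scn4b (CPM, vertical axes from 0) in 9 classes of gated neurons; points are the control and CFA libraries and bars are exact 95% Poisson intervals for counting error. Scn4b reaches 540 and 450 CPM in Trpm8+ neurons and stays under 10 CPM in both Nefh-Calca+ classes, while Scn2b and Scn3b differ much less between classes.

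Scn2b was read in every class, and its highest level among the 9 classes lay in neurons with both Nefh and Calca. Nefh+Calca+ neurons stood at 184 CPM in control (167 to 203) and 221 CPM in CFA (192 to 253). Mrgpra3+ neurons at 174 and 176 CPM and Nppb+ neurons at 152 and 199 CPM followed, and these neighbours in the order did not differ beyond counting error. The shallow neurons with neither Nefh nor Calca over the threshold, left out of this order, held 146 and 223 CPM. At the low end were Mrgprd+ neurons, at 29.4 and 40.0 CPM, and Sstr2+ peptidergic neurons, at 42.2 and 23.0 CPM.

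The log2 ratio of Scn2b in Nefh+Calca+ over Nefh-Calca+ neurons was 0.81 in control (0.64 to 0.97) and 1.16 in CFA (0.93 to 1.39). The Nefh+Calca+ neurons were the deeper ones, with medians of 60104 against 34883 UMIs in control and 54135 against 31054 UMIs in CFA. Of the 3 genes, 1 passed 2-fold in this comparison in control (Scn4b) and 2 in CFA (Scn2b and Scn4b), against 1.92% and 2.99% of all genes. In Nefh+Calca- neurons, by contrast, the direction of Scn2b was not settled. Its level was 89.3 CPM in control and 134 CPM in CFA, which gave log2 ratios over Nefh-Calca+ neurons of -0.24 (-0.61 to 0.11) and 0.44 (0.01 to 0.84), and doubling the marker thresholds turned the CFA value to -0.57. In Mrgprd+ neurons Scn2b was lower than in Nefh-Calca+ neurons by a log2 ratio of -1.84 in control and -1.30 in CFA. The counts of genes past 2-fold in this comparison were 2 of 3 lower in control (Scn2b and Scn3b; background 14.9%) and 1 of 3 lower in CFA (Scn2b; background 13.2%), with Scn4b higher in both (background 7.41% and 6.94%).

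A marked difference in Scn2b also ran within the peptidergic C neurons. Sstr2- neurons held 129 CPM in control and 137 CPM in CFA, so that Sstr2+ neurons were lower by a log2 ratio of -1.62 (-1.87 to -1.37) and -2.58 (-3.03 to -2.16). Scn2b and Scn4b, 2 of the 3 genes, lay at least 2-fold lower in Sstr2+ neurons in each library, where 3.24% of genes with at least 50 counts did so in control and 2.93% in CFA. In CFA Scn4b had only 34 counts in both sets and is not among the genes of that share. The sets did not differ much in depth, with medians of 35103 and 34740 UMIs in control and 33386.5 and 30564 UMIs in CFA for Sstr2+ and Sstr2- neurons. After thinning, 11.6% of Sstr2+ and 41.2% of Sstr2- control neurons had a Scn2b UMI, and 6.45% and 42.0% in CFA. Scn3b differed less between them, at 107 against 121 CPM in control and 78.1 against 112 CPM in CFA.

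Scn3b was the gene most widely shared among neurons, with a UMI in 88.3% of control and 87.5% of CFA neurons. Mrgpra3+ neurons led at 221 CPM in control (206 to 237) and 261 CPM in CFA (226 to 300), above the next class by an interval that excluded 0 in both libraries. Tafa4+P2ry1+ neurons (173 and 148 CPM) and Nppb+ neurons (153 and 166 CPM) came next and could not be ordered beyond counting error. Nefh+Calca+ neurons, with Nefh at 434 and 622 CPM, held Scn3b at 122 and 117 CPM. The classes richest in Nefh were low: Nefh+Calca- neurons held 82.9 and 59.4 CPM and Trpm8+ neurons 62.3 and 56.9 CPM. Of the 9 classes only Mrgprd+ neurons lay lower in both libraries, at 43.6 and 55.4 CPM, and in CFA these last 3 classes did not differ beyond counting error.

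The log2 ratio of Scn3b in Nefh+Calca- over Nefh-Calca+ neurons was -0.50 in control (-0.88 to -0.14) and -0.76 in CFA (-1.41 to -0.17). In Trpm8+ over Nefh-Calca+ neurons it was -0.91 and -0.82. Scn3b was thus lower in the 2 classes where Scn4b was highest. In Mrgpra3+ neurons Scn3b was above Nefh-Calca+ neurons by a log2 ratio of 0.92 in control and 1.37 in CFA, so that past 2-fold were 1 of 3 genes in control (Scn4b; background 6.66%) and 2 of 3 in CFA (Scn3b and Scn4b; background 5.63%, among genes with at least 50 counts, which Scn4b did not reach there).

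Across the 9 classes of a library the levels of Scn2b and Scn3b followed each other more closely than either followed Scn4b. Pearson's r of log2(CPM + 1) was 0.76 in control and 0.60 in CFA for Scn2b with Scn3b, 0.33 and 0.24 for Scn2b with Scn4b, and -0.12 and -0.37 for Scn3b with Scn4b. These r values are descriptions over 9 classes that share a library and its totals. The neighbouring genes Scn2b and Scn4b were therefore not the closer pair. Each gene kept its own pattern between the libraries, with r of 0.93 for Scn2b, 0.93 for Scn3b and 0.83 for Scn4b.

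The relation to Nefh and Calca was then followed neuron by neuron, with each neuron thinned to 5000 UMIs and Spearman's rho averaged over 10 draws. Scn4b went with Nefh, with rho of 0.31 in 797 control neurons and 0.31 in 407 CFA neurons, and against Calca, with rho of -0.39 and -0.44. Of the 3 genes only Scn4b reached a rho of 0.2 with Nefh, as did 0.518% of all genes with at least 500 counts in control and 0.937% in CFA. It was also the only one at -0.2 or lower with Calca, as were 3.6% and 4.67% of genes. Much of the relation with Nefh lay in 1 class: without Trpm8+ neurons rho was 0.16 and 0.20. Within Nefh-Calca+ neurons rho was 0.07 and 0.07, where Scn4b itself was nearly absent. For Scn2b, rho was 0.09 and 0.09 with Nefh and 0.06 and -0.05 with Calca. For Scn3b, rho was -0.06 and -0.06 with Nefh and 0.07 and -0.0034 with Calca. These rho values describe neurons that share a library, and in counts this sparse the values near 0 are imprecise. For Scn2b with Nefh in control the draws ran from 0.03 to 0.14. Its mean rho with Nefh was at or above that of 95.6% of genes in control and 93.6% in CFA. On CPM without thinning, rho with Nefh was 0.19 and 0.18 for Scn2b and -0.13 and -0.15 for Scn3b.

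Over all neurons, binned levels of Scn4b differed little over the lower Nefh bins and were far higher in the top one. That bin has no upper limit, and 40 of its 80 control and 22 of its 51 CFA neurons were Trpm8+. Bins of unequal width cannot tell a step from a slope. In control neurons of under 50, 50 to 100, 100 to 200 and 200 to 500 CPM of Nefh it stood at 33.1, 39.1, 31.5 and 45.8 CPM, and in neurons of at least 500 CPM at 481 CPM. The CFA library gave 38.4, 45.1, 40.9, 51.9 and 344 CPM. The top bin was the highest without Trpm8+ neurons too. Among such neurons of under 1000 CPM of Calca, Scn4b stood at 295 CPM in the 27 control and 348 CPM in the 15 CFA neurons of that bin. The bin before held 114 and 137 CPM. In neurons of at least 1000 CPM of Calca, Scn4b also rose before the top bin. Over the Nefh bins it stood there at 5.85, 8.83, 19.9, 35.3 and 246 CPM in control. The CFA levels were 8.46, 4.43, 15.4, 31.3 and 138 CPM, where the second bin was not above the first. Over bins of Calca, Scn4b went from 291 CPM below 250 CPM of Calca to 8.88 CPM at 8000 CPM or more in control, and from 215 to 6.04 CPM in CFA.

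Scn2b went up with Nefh over the bins of Calca-rich neurons. In neurons of at least 1000 CPM of Calca its levels over the 5 Nefh bins were 57.4, 67.1, 125, 171 and 185 CPM in control and 75.6, 89.7, 106, 152 and 263 CPM in CFA, higher in each bin than in the one before, although the intervals of the first pair of bins overlapped in both libraries, those of the next pair in CFA and those of the last pair in control. In neurons of under 1000 CPM of Calca there was no such order: the levels over the same bins were 84.8, 82.2, 50.04, 141 and 52.9 CPM in control and 102, 114, 85.7, 209 and 65.5 CPM in CFA, highest in the bin of 200 to 500 CPM of Nefh. In the top Calca-poor bin 33 of 60 control and 19 of 34 CFA neurons were Trpm8+, and without them Scn2b stood at 98.9 and 80.9 CPM. Over the same Calca-rich bins Scn3b stood at 155, 116, 106, 118 and 95.8 CPM in control and at 135, 122, 105, 106 and 100 CPM in CFA, highest in the bin with the least Nefh. The top Calca-rich bin held 20 control and 17 CFA neurons, of which 7 and 3 were Trpm8+. The bins were set after values had been seen.

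**Figure D2:**
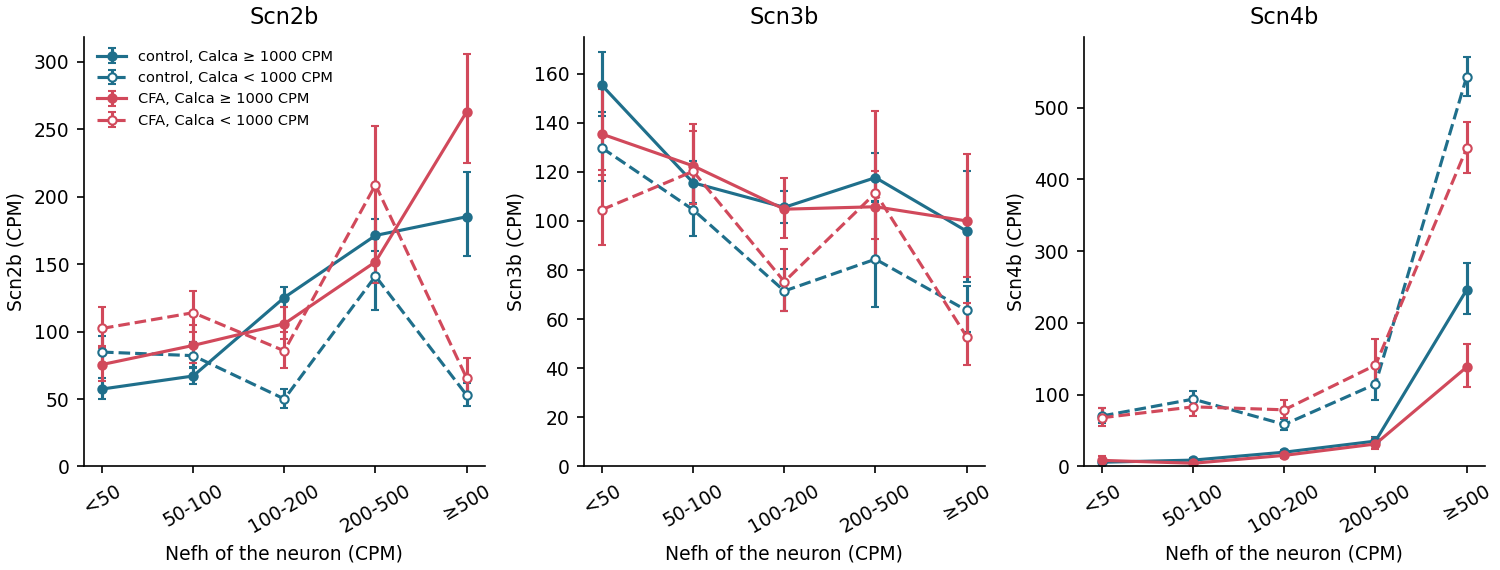
Levels of each gene (CPM, vertical axes from 0) in neurons binned by their own Nefh level (CPM, horizontal axes); filled points with solid lines are neurons of at least 1000 CPM of Calca, open points with dashed lines those below, and bars are exact 95% Poisson intervals. Scn4b is at 543 and 443 CPM in the top Nefh bin of Calca-poor neurons, whereas Scn2b ends at 185 and 263 CPM along the Calca-rich lines and, along the Calca-poor lines, reaches 141 and 209 CPM before a top bin of 52.9 and 65.5 CPM.

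In 3 classes the neurons were divided into those with and those without Scn2b, and other genes differed with it. This split was made after values had been seen, and the neurons are not replicates. Neurons without a Scn2b UMI were not particular to these classes. They were 61 of 95 control and 47 of 62 CFA Sstr2+ neurons, where 1.48 and 0.77 UMIs would be held at the class level and median depth. Among Nefh+Calca- neurons they were 8 of 19 in control and 1 of 11 in CFA. In the Mrgpra3+ class a neuron of median depth would hold 13.7 UMIs of Scn2b in control and 10.6 in CFA at the level of the class, yet 13 of 45 control and 6 of 12 CFA neurons had 0. Depth did not set them apart, with a median of 78710 UMIs for neurons without and 76020.5 UMIs for neurons with Scn2b in control, and 56168.5 and 62073.5 UMIs in CFA. All 129 control UMIs of Scn4b in this class came from 23 of the 32 neurons with Scn2b, and the 13 without had 0 (3 UMIs would be 3.22 CPM). Likewise all 12 CFA UMIs came from 4 of the 6 neurons with Scn2b.

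Mrgpra3+ neurons without Scn2b held more Calca, at 8008 against 3498 CPM in control and 6458 against 2046 CPM in CFA. They also held more Mrgpra3, an itch receptor gene, at 957 against 498 CPM and 902 against 546 CPM, and more Scn3b, at 294 against 195 CPM and 294 against 227 CPM. The Scn3b intervals overlapped in CFA and not in control. Their Nefh was lower, at 52.6 against 153 CPM in control and 18.6 against 86.2 CPM in CFA. Every one of these 4 genes lay on the same side in both libraries. Tac1, the gene of the peptide substance P, did not. Neurons without Scn2b held it at 93.3 against 77.1 CPM in control and at 34.5 against 67.9 CPM in CFA, with overlapping intervals.

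In Mrgprd+ neurons Scn4b also stood with Scn2b. The 63 control neurons with Scn2b held Scn4b at 40.6 CPM and the 96 without at 7.97 CPM, and in CFA the levels were 64.6 CPM in 24 and 3.00 CPM in 38 neurons. Calca was higher in the neurons with Scn2b here, at 1482 against 951 CPM and 1381 against 680 CPM, opposite to the Mrgpra3+ class. Trpm8+ neurons went the other way for Scn4b: the 21 control neurons without Scn2b held it at 760 CPM and the 29 with Scn2b at 312 CPM, and in CFA 13 neurons held 542 CPM and 11 held 326 CPM. Those without Scn2b were the deeper ones here, with a median of 54429 against 39695 UMIs in control and 45849 against 39458 UMIs in CFA. Trpm8+ neurons without Scn2b were richer in Nefh, at 1774 against 863 CPM and 1713 against 1137 CPM, and poorer in Tac1, at 995 against 4299 CPM and 995 against 2092 CPM. Their Calca was far lower in control, at 266 against 2572 CPM, but differed much less in CFA, at 562 against 726 CPM.

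**Figure D3:**
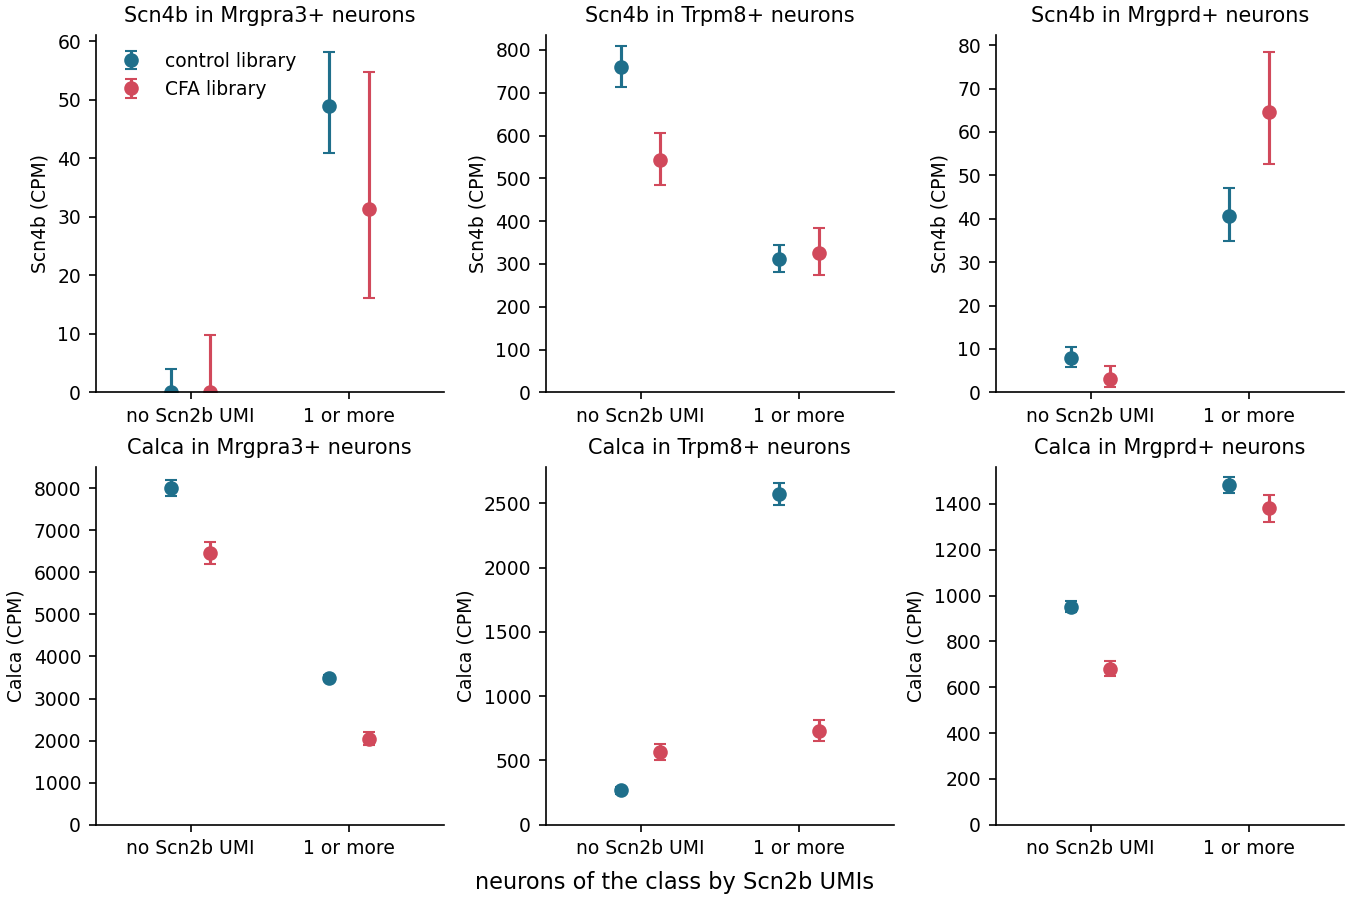
Scn4b (top row) and Calca (bottom row) in CPM in Mrgpra3+, Trpm8+ and Mrgprd+ neurons, divided into those with no Scn2b UMI and those with 1 or more; points are the libraries, bars are exact 95% Poisson intervals, and all axes start at 0. Scn4b is at 0 in Mrgpra3+ neurons without Scn2b and at 49.0 and 31.4 CPM in those with it, while in Trpm8+ neurons it is higher in those without.

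The antisense gene Gm10684 was nearly a Trpm8+ transcript. Of its 32 UMIs in control neurons 28 lay in 14 of the 50 Trpm8+ neurons, and of its 15 in CFA neurons all 15 lay in 10 of the 24. Trpm8+ neurons without Scn2b held 22 of the control UMIs and 10 of the CFA UMIs, against 6 and 5 in those with Scn2b. The gene was looked at after its values had been seen, because it covers Scn2b, and these counts are too few to order the sets in CFA.

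Genes with a class pattern most like each member were ranked among 9506 genes with at least 500 counts by the lower of the r values of the libraries over the 9 classes. The closest to Scn4b was Scn8a, the gene of the alpha subunit Nav1.6 of nodes and initial segments, with r of 0.96 in control and 0.94 in CFA. Cplx1 (complexin, which acts in vesicle release), Cend1, Nat8l and Tpbgl followed with r between 0.89 and 0.96. Scn8a, for example, stood at 109 and 145 CPM in Trpm8+ neurons, 147 and 295 CPM in Nefh+Calca- neurons and 3.31 and 5.51 CPM in Sstr2+ neurons. Nefh was only number 144 of 9505 genes beside Scn4b, with r of 0.75 and 0.79. Closest to Scn3b was Cpne4 (a copine, a calcium-binding protein), with r of 0.87 and 0.85, before Zc2hc1a, Abcc1, Tes and Slc37a1. Cpne4 stood at 404 and 404 CPM in Mrgpra3+ neurons and at 7.31 and 11.8 CPM in Trpm8+ neurons. No gene was as close to Scn2b, whose nearest, Pde1c (a phosphodiesterase), had r of 0.72 and 0.78, followed by Spa17, Prpf38a, Hspb1 and Prep.

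Beside the beta subunits, a list of 25 genes of the channel complex was read by role in Nefh+Calca- over Nefh-Calca+ neurons. Of 24 with enough counts, 10 were at least 2-fold higher and 5 lower in control, and 12 higher and 3 lower in CFA, with a median log2 ratio of 0.60 and 0.96 where that of all genes was 0.0046 and -0.02. Of all genes 8.73% were higher and 12.7% lower in control, and 8.34% and 13% in CFA, so the count of lower genes of the list in CFA lay near the background. Among 7 alpha subunit genes, Scn1a (log2 ratio 5.54 in control and 5.83 in CFA) and Scn8a (3.84 and 4.77) were higher. Scn10a (-2.70 and -2.48) and Scn11a (-4.32 and -3.15), the tetrodotoxin-resistant channels of pain neurons, were lower, as was Scn2a in control (-1.48, against -0.48 in CFA), and Scn9a was within 2-fold at 0.20 and 0.88. The genes of node and initial segment partners were 5 of 7 higher in control and 6 of 7 in CFA, among them Cntn1 (5.92 and 6.33) and Cntnap1 (3.25 and 3.79), which join axon and myelin beside the node. Of 5 potassium channel genes of fast-firing neurons 3 were higher in each library, with Kcna1 at 4.40 and 5.42 and Kcna2 at 2.70 and 2.70. Of 3 channel modulator genes 2 had enough counts. Fgf13 was at least 2-fold lower in each library, at 538 against 1792 CPM in control and 468 against 1871 CPM in CFA. Fgf12 was higher, at 119 against 79.8 CPM and 166 against 80.7 CPM, past 2-fold in CFA only. Among the genes of enzymes that cut beta subunits, Bace1 stood at -0.27 and -0.43 and Adam10 at -1.47 and -0.65. In Nefh+Calca- neurons these rest on 71 and 37 UMIs of Bace1 and 15 and 14 UMIs of Adam10.

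Trpm8+ neurons gave a like count, with 10 genes of the list higher and 3 lower than in Nefh-Calca+ neurons in control and 11 higher and 3 lower in CFA. The share of all genes was 7.69% higher and 12.2% lower in control and 7.57% and 13.9% in CFA. Scn8a was at 3.40 and 3.75, Scn1a at 4.82 and 4.93, Kcna2 at 3.48 and 3.31 and Scn10a at -2.91 and -3.38 on the log2 scale.

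Most UMIs of the 3 genes came from neurons, which held 97.7% of the Scn2b, 94.2% of the Scn3b and 97.9% of the Scn4b UMIs of all gated control cells and 98.7%, 94.5% and 98.2% in CFA. Neurons also held most UMIs of all genes, 38577849 of the 48233077 in kept control cells and 16752737 of the 21658155 in kept CFA cells. Such shares follow depth as well as level. UMIs of neuronal genes in other cells can come from free RNA of broken neurons or from cells captured together. Their source was not tested. Each type was therefore set against 11 other neuronal genes, among them Tubb3, Calca and Scn9a, as a percentage of their level in neurons. In satellite glial cells (SGCs), which wrap the neuron bodies, these genes stood at a median of 3.99% of the neuron level in control (range 3.30% to 5.23%) and 2.15% in CFA (1.63% to 3.44%). Only 3 pairs of a member and a cell type had their whole interval above the range of these genes in the same type in both libraries, and the other pairs overlapped that range or lay below it in 1 library or more.

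Scn3b in SGCs stood at 78.5 CPM in control (67.7 to 90.5) and 86.9 CPM in CFA (68.6 to 109), which is 73.0% and 83.3% of its level in neurons. It was read in 160 of 1127 control SGCs (14.2%) at a median depth of 1960 UMIs and in 65 of 443 CFA SGCs (14.7%) at 1786 UMIs, with no cell above 3 UMIs. Immune cells, at medians of 2023 and 1688 UMIs, had a Scn3b UMI in 2 of 303 control cells (0.66%) and 0 of 187 CFA cells. In the same SGCs Scn2b stood at 2.55% and 1.02% and Scn4b at 8.40% and 2.85% of the neuron level. Non-myelinating Schwann cells held Scn3b at 47.3 and 55.3 CPM from 21 and 9 UMIs, 44.0% and 53.0% of the neuron level. Their 11 reference genes had a median of 7.43% and 6.65% but reached 25.6% and 29.6%, and the CFA interval of Scn3b, 24.2% to 101%, overlapped that range.

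Scn2b stood out in fibroblasts, at 46.7 CPM in control (35.0 to 61.1) and 24.2 CPM in CFA (13.5 to 39.8), or 48.2% and 21.7% of the neuron level. The 11 neuronal genes were at a median of 4.55% and 1.71% there and no higher than 7.27% and 4.78%. Its UMIs lay in 46 of 586 control cells (7.85%) at a median depth of 1723.5 UMIs and in 13 of 392 CFA cells (3.32%) at 1284.5 UMIs. Immune cells had 1 Scn2b UMI in each library.

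In mural cells, the smooth muscle cells and pericytes of vessels, Scn4b stood at 264 CPM in control (168 to 397) and 229 CPM in CFA (84.1 to 499). These values are 336% and 289.8% of its level over all neurons together, 78.7 and 79.1 CPM. The neuron classes with the most Scn4b were higher, at 540 and 450 CPM in Trpm8+ and 306 and 349 CPM in Nefh+Calca- neurons. The 11 neuronal genes had a median of 4.62% and 1.93% in mural cells and reached 16.9% and 14.2%. The mural values of Scn4b rest on 23 UMIs in 14 of 58 control cells and 6 UMIs in 3 of 20 CFA cells. A split by Acta2, the smooth muscle actin gene, chosen after the values had been seen, put every one of these UMIs in cells of at least 5 Acta2 UMIs. The 25 such control cells held Scn4b at 436 CPM (277 to 655) and the 7 such CFA cells at 453 CPM (166 to 985). The 33 and 13 mural cells below 5 Acta2 UMIs had 0, where 3 UMIs would be 87.6 and 232 CPM. The 2 groups of mural cells differed in depth, with medians of 2075 and 1052 UMIs in control.

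**Figure D4:**
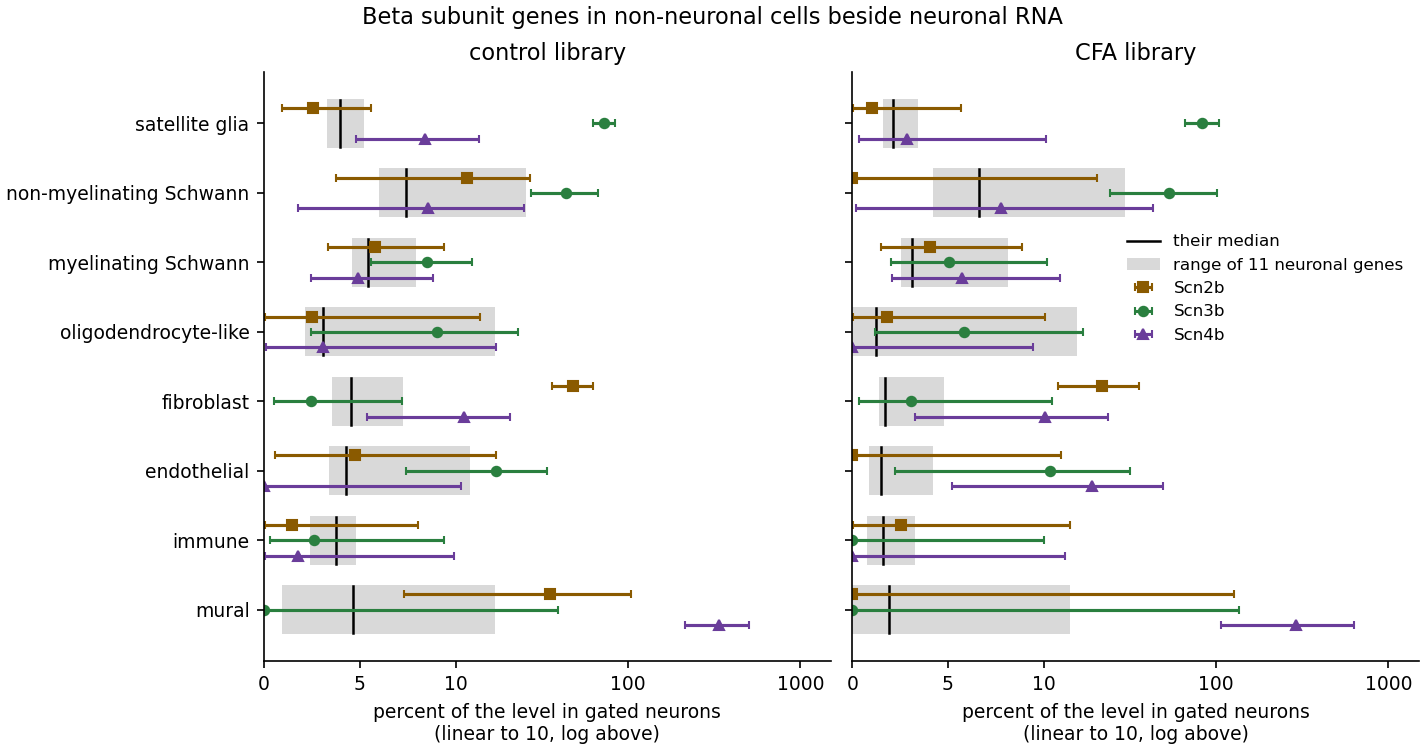
Levels of each gene in 8 non-neuronal cell types as a percentage of its level in gated neurons (horizontal axes, linear to 10 and logarithmic above), with exact 95% Poisson intervals; grey bands give the range and black lines the median of 11 other neuronal genes. Scn3b in SGCs (73.0% and 83.3%), Scn2b in fibroblasts (48.2% and 21.7%) and Scn4b in mural cells lie to the right of the bands in both libraries.

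Between the conditions the 3 genes moved little over all neurons. Scn2b went from 97.1 CPM in control to 111 CPM in CFA, a log2 ratio of 0.19 (0.11 to 0.28). Scn3b went from 108 to 104 CPM (-0.04, -0.13 to 0.04) and Scn4b from 78.7 to 79.1 CPM (0.01, -0.09 to 0.10). Of the 3 genes 0 passed a log2 ratio of 0.5 in either direction, as 6.1% of 14516 genes did upward and 6.2% downward, around a median of -0.0044. None of these differences has a replicate behind it, and 0 of the channel complex genes with enough counts passed 0.5. Such sums mix the share of each class with its level, and the values by class follow. The classes may not hold like neurons in both libraries, since the gates count raw UMIs and depth differed. Nefh+Calca- neurons had a median of 47439 UMIs in control and 27635 UMIs in CFA. Nefh in Nefh+Calca+ neurons stood at 434 and 622 CPM.

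Within classes the summed level of Scn2b was higher in CFA in Mrgprd+ neurons (log2 ratio 0.45, 0.16 to 0.73), Tafa4+P2ry1+ neurons (0.23, 0.03 to 0.43), Nefh+Calca+ neurons (0.26, 0.01 to 0.50) and Nefh+Calca- neurons (0.58, 0.04 to 1.12). Only the last passed 0.5, where 13.6% of genes did so upward, against 4.22%, 5.1% and 8.63% in the other 3 classes in the order given. None of these 4 intervals excluded 0 without the CFA neuron with the most Scn2b UMIs, a setting chosen after seeing the data, where the ratios were 0.08 (-0.24 to 0.39), 0.16 (-0.05 to 0.36), 0.19 (-0.07 to 0.45) and 0.16 (-0.45 to 0.76). In Mrgprd+ neurons 39 of the 156 CFA UMIs came from that neuron. In Nppb+ neurons the Scn2b ratio was 0.39 (-0.02 to 0.80), and 0.35 (-0.08 to 0.77) without the top CFA neuron. It was 0.62 (0.18 to 1.07) without the top control neuron and 0.57 (0.12 to 1.04) without the top neuron of both libraries. In Mrgpra3+ neurons 3 of 12 CFA neurons held 79.9% of the Scn2b UMIs, and the ratio went from 0.02 to -0.38 (-0.72 to -0.06) without the top one. The exception in direction was the Sstr2+ class, where Scn2b was lower in CFA by -0.88 (-1.37 to -0.41), past the threshold with 7.62% of genes, and by -1.24 without the top CFA neuron and -0.77 without the top control neuron. Scn3b was lower there too (-0.46, -0.72 to -0.19) and in Tafa4+P2ry1+ neurons (-0.23, -0.42 to -0.03), and it was higher in Mrgprd+ neurons (0.35, 0.11 to 0.58) and Mrgpra3+ neurons (0.24, 0.01 to 0.46). Without the top CFA neuron the Mrgpra3+ value was 0.17 (-0.09 to 0.42) and the Mrgprd+ value 0.28 (0.04 to 0.52). For the classes lower in CFA the top control neuron was left out instead. This gave -0.43 (-0.70 to -0.17) in Sstr2+ and -0.20 (-0.39 to -0.0037) in Tafa4+P2ry1+ neurons.

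Scn4b was lower in CFA in Trpm8+ neurons (-0.26, -0.42 to -0.11) and in Mrgpra3+ neurons (-1.20, -2.19 to -0.34), the latter past the threshold with 13.1% of genes and resting on 12 CFA UMIs. Neurons without Scn2b, which had 0 Scn4b UMIs, were 13 of 45 Mrgpra3+ neurons in control and 6 of 12 in CFA, and the part of this makeup in the difference was not tested. The Trpm8+ ratio was -0.45 without the top CFA neuron, which held 88 UMIs, and -0.16 without the top control neuron, which held 173 UMIs. In Mrgprd+ neurons Scn4b was higher in CFA (0.37, 0.03 to 0.71), but at 0.16 (-0.21 to 0.52) without the top CFA neuron. Tafa4+P2ry1+ (0.12) and Nefh+Calca- neurons (0.19) had intervals that included 0. Without the top control neuron these ratios were 0.20 (0.02 to 0.37) and 0.54 (0.21 to 0.87). With the top neuron of both libraries left out they were 0.11 (-0.07 to 0.29) and 0.48 (0.12 to 0.84). In Nppb+ neurons, with 26 control and 0 CFA UMIs, the ratio was -2.92 with the CFA sum set at 3 UMIs, and without 1 neuron only 2 control UMIs remained. In the shallow neurons without Nefh or Calca over the threshold, Scn2b (0.61) and Scn4b (0.82) were higher in CFA, as were 15.1% of genes. With each class given its control share of neuronal UMIs, a setting chosen after seeing the data, the ratios over all neurons were 0.17 for Scn2b, -0.0014 for Scn3b and -0.06 for Scn4b.

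**Figure D5:**
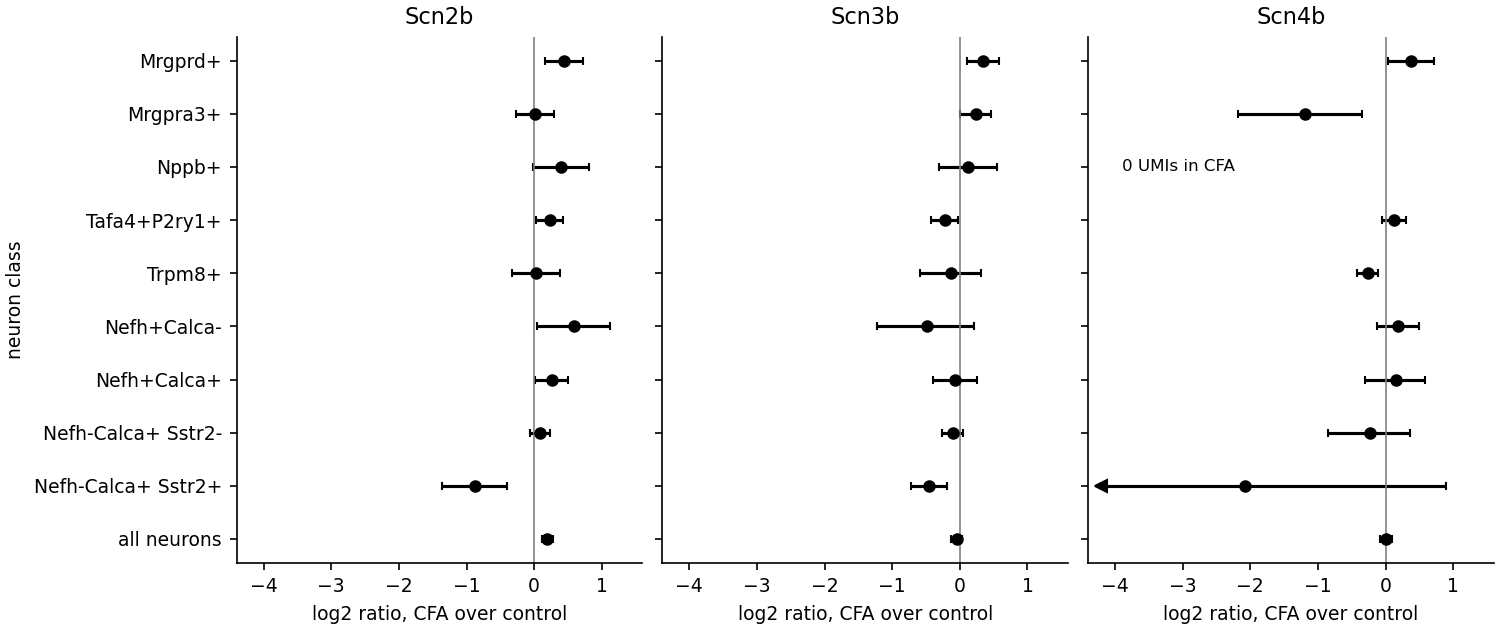
Log2 ratio of CPM in the CFA over the control library (horizontal axes) for each gene in 9 neuron classes and in all neurons; points are ratios and bars conditional exact 95% intervals for counting error, with 1 library per condition. Over all neurons the ratios are 0.19, -0.04 and 0.01, and the lowest point for Scn2b is that of Nefh-Calca+ Sstr2+ neurons at -0.88.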

How the data were processed

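RNA of single TG cells was measured in 1 control and 1 CFA library. The authors deposited counts of UMIs per gene and cell from BD Rhapsody libraries, not normalized. The submitters' processing notes name fastp and GRCm38, and the aligner, the annotation and the strand setting are not given in the sources used here. From these counts CPM were computed for summed classes with numpy 2.4.6, pandas 2.3.3 and scipy 1.17.1 (Python 3.11.15), using exact Poisson intervals for levels, Clopper-Pearson intervals for shares and conditional exact binomial intervals for ratios. Depth was 48233077 UMIs in 6695 control and 21658155 UMIs in 3661 CFA cells kept.

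Neuron classes needed at least 5 UMIs of Mrgprd, Mrgpra3 or Nppb, 3 of Trpm8, or 5 of both Tafa4 and P2ry1, and for the rest 15 of Nefh, 50 of Calca and 3 of Sstr2. Thresholds came from the marker distributions. No doublet caller was run; 2 control and 1 CFA neurons past more than 1 gate were left out of classes. Non-neuronal types rest on 4 markers each. Genes named are the 3 members, the markers, the list of 25 channel complex genes and the 5 genes most like each member. Members and lists were chosen with earlier results of these data known. Gene positions are from GENCODE M21 and start windows from RefSeq.

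On simulated counts for Nefh+Calca- over Nefh-Calca+ neurons in control, intervals held the true ratio for 96.45% of 11261 unchanged genes, and lay on the right side of 0 for 86% of 50 genes at a log2 ratio of 1, 52% at -1, 100% at 2 and 86% at -2. These counts were drawn from the Poisson model that the intervals assume, without added variation between neurons. Coverage there was therefore set by the model, and how the intervals hold for counts gathered in few neurons was not tested. Alternatives were other cell filters, depths, marker thresholds, totals, centring, weights, thinning and removal of the most glial neurons.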

Additional observations from a re-analysis of the deposited data

Results flagged for a closer look

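The CFA over control difference of each gene pointed in different directions in different neuron classes, and whether the classes differ from each other was not tested, since each condition has 1 library. For Scn2b the log2 ratio was 0.45 in Mrgprd+, 0.23 in Tafa4+P2ry1+, 0.58 in Nefh+Calca- and 0.26 in Nefh+Calca+ neurons, and -0.88 in Nefh-Calca+ Sstr2+ neurons. For Scn3b it was 0.35 in Mrgprd+ and 0.24 in Mrgpra3+ neurons, and -0.23 in Tafa4+P2ry1+ and -0.46 in Nefh-Calca+ Sstr2+ neurons. For Scn4b it was 0.37 in Mrgprd+ neurons, and -1.20 in Mrgpra3+ and -0.26 in Trpm8+ neurons. In Nppb+ neurons it was -2.92 with the CFA sum of 0 set at 3 UMIs, and 24 of the 26 control UMIs came from 1 neuron. Without the CFA neuron richest in the gene, the interval of each listed value above 0 included 0, except that of Scn3b in Mrgprd+ neurons.

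Cells left out by the filter on genes and mitochondrial counts also held these genes. In the 603 such control cells Scn2b stood at 17.6 CPM, Scn3b at 27.8 CPM and Scn4b at 13.2 CPM, above the 4.39 CPM that 3 UMIs would give. In the 419 such CFA cells Scn2b and Scn4b had 6 UMIs each, or 13.7 CPM, and Scn3b had 3 UMIs, or 6.85 CPM, which is itself the level that 3 UMIs give.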

How the results depend on the processing

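Of 192 values recomputed for 21 results under other settings, 180 stayed within the spread of the reported value, 11 moved and 1 reversed; the cause was not tested. For ratios the spread is the counting interval of the reported value. For rho it is an interval that treats neurons as independent, though they share a library. Putting neurons past more than 1 gate in the strongest class could not change Nefh+Calca- or Nefh-Calca+ neurons. The ratios between these classes therefore stayed the same in that setting by construction. With doubled marker thresholds Scn2b in Nefh+Calca- over Nefh-Calca+ neurons went from 0.44 to -0.57 in CFA, and Scn4b from 5.41 to 5.04 in control. With halved thresholds Scn4b went from 6.03 to 6.65 in CFA. In neurons thinned to 5000 UMIs the control ratios of this comparison were 0.29 for Scn2b (reported -0.24) and -0.91 for Scn3b (-0.50). Over all neurons the CFA over control ratio of Scn4b was 0.13 with neurons weighted equally and -0.11 without the 10% of neurons richest in glial markers (0.01). The rho of Scn4b with Calca was -0.302 in control and -0.313 in CFA when neurons of at least 2000 UMIs were thinned to that depth, and -0.494 and -0.560 on CPM without thinning (-0.39 and -0.44). The rho of Scn2b with Nefh was 0.191 in control without thinning (0.09). The remaining Scn4b ratios between these classes lay on the same side of 0.

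No paired analysis was possible because each condition has 1 library. Leaving out replicates in turn was not run for the same reason. Depth limits the classes of 11 to 16 CFA neurons and the cell types with few UMIs.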
